A study of Mus musculus with 12 samples.

Results

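Efnb2, Hmga2, Nudt5, Aqp8, Abcb1a and Cited2 are 6 of the 8252 genes that the array names, and they were chosen by their signal in mouse embryonic stem cells, which was below the PBS controls after 5 mM hydrogen peroxide and above them after 100 µM. Each of the 6 genes has 1 probe set with 1 gene symbol, and all 6 probe sets passed the filter on low values, as did 8695 of the 12488 probe sets on the array. The signals of all groups were used to choose the genes, so their levels and differences between groups are given here as a description, with no test. The genes encode a membrane ligand, a pair of membrane transporters, a hydrolase and a pair of nuclear regulators.

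Total RNA was hybridised to Affymetrix MG_U74Av2 arrays, on which a gene is read by 1 or more sets of short probes and reported as a signal in arbitrary units. The 12 arrays fall into cells given 5 mM hydrogen peroxide for 30 min (n = 5), cells given 100 µM for 15 min (n = 4), and controls kept in PBS with no peroxide (n = 3). Peroxide was given in PBS, and the cells then spent 1 h back in medium before they were lysed; the control label names PBS alone and gives no time, so peroxide and the return to medium cannot be told apart in a comparison with PBS. Concentration and length of exposure also differ together between the peroxide groups, and their effects cannot be told apart. All groups are the same single clone, C2, of the E14tg2a line, which carries a pair of targeted I-SceI sites, the recognition sites of a rare-cutting endonuclease. The labels do not say whether replicates were separate cultures, so a p-value here covers the spread between these arrays alone, and that spread may be technical. In bulk RNA such as this, fewer cells of a type and less RNA per cell cannot be told apart.

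Hydrogen peroxide is a small oxidant that crosses membranes partly through water channels, oxidises cysteines in proteins and damages bases in DNA and in the nucleotide pool. Cells answer it through stress kinases and through transcription factors such as those that bind antioxidant response elements, and strong exposures also curb transcription and translation. Among the 6 genes, Aqp8 encodes a water channel that also conducts hydrogen peroxide, and Nudt5 encodes a hydrolase of ADP-ribose and of oxidised guanine nucleotides. Abcb1a encodes P-glycoprotein, a pump that exports drugs and other lipophilic compounds, and it is one of a pair of mouse genes that together match the single human multidrug gene. Efnb2 encodes ephrin-B2, a membrane ligand of Eph receptors on neighbouring cells. Hmga2 encodes an AT-hook chromatin protein abundant in embryonic cells, and Cited2 encodes a cofactor that binds p300 and CBP and competes there with the hypoxia factor HIF1A.

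Promoter sequence was searched because the genes moved together between the groups. RefSeq windows on GRCm38.p6 (250 bases before to 50 after the annotated start) were found for 6 of 6 genes and were read on both strands for 8 motifs, against 32851 windows of the same length from the whole annotation. The antioxidant response element core (TGACNNNGC) lay in the windows of Efnb2, Nudt5 and Abcb1a, 3 of 6, and in 12.4% of all windows. The hypoxia response element core (ACGTG) lay in those of Aqp8 and Cited2, 2 of 6, and in 19.6% of all windows. None of the 6 windows held AP-1 (TGANTCA, 7.81% of all windows), CRE (TGACGTCA, 1.79%), the heat shock element (7.8%), E2F (TTTCCCGC, 1.07%), the serum response element (1.63%) or the p53 half-site (8.36%). The 250 bases before the start are shown for the 4 genes with a match in that stretch, 5′ to 3′ on the gene's strand, with the matches in capitals:
Efnb2: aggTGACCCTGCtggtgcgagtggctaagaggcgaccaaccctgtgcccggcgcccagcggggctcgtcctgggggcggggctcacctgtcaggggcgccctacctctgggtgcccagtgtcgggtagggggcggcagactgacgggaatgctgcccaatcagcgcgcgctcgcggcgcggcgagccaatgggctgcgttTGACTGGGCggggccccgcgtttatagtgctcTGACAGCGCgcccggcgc
Nudt5: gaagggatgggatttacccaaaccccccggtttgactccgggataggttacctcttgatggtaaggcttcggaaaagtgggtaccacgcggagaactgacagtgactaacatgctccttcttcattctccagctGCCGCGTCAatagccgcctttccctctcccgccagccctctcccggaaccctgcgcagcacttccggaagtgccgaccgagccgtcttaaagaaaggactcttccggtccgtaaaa
Aqp8: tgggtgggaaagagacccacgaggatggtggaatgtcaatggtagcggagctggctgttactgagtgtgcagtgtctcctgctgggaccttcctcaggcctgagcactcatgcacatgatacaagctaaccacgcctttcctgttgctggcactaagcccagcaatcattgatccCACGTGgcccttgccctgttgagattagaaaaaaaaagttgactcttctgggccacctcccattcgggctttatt
Cited2: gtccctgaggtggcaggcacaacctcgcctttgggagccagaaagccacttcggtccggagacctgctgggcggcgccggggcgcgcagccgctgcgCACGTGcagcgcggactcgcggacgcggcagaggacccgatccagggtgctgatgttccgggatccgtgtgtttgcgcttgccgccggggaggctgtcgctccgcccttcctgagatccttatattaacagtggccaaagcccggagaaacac
The Efnb2 stretch (chr8:8661243-8661492, minus strand) holds 3 antioxidant cores, which begin 247, 50 and 18 bases before the start. The Nudt5 stretch (chr2:5844784-5845033, plus strand) holds 1, read on the opposite strand. The Aqp8 stretch (chr7:123462044-123462293, plus strand) and the Cited2 stretch (chr10:17722978-17723227, plus strand) each hold the palindrome CACGTG, which counts as the hypoxia core on both strands in overlap and is also an E-box. GC content of the full windows spread from 40.3% in Abcb1a to 72.3% in Efnb2, against a median of 52.7% over all windows, so base composition varied widely among the 6. A match of letters is a description of the window and shows no binding.

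Signals of arrays of 1 group correlated at 0.958 to 0.978 over the tested probe sets (19 pairs) and those of different groups at 0.921 to 0.957 (47 pairs). The stem cell factors Pou5f1, Sox2, Nanog and Zfp42 were bright in every group, with mean signals of 5903, 3107, 4959 and 2900 in 5 mM cells, 4629, 5633, 5673 and 2910 in 100 µM cells, and 4319, 3648, 3461 and 3004 in PBS cells. The brightest probe set reached 19733 to 34685 on 5 mM arrays, 14976 to 24225 on 100 µM arrays and 7206 to 8904 on PBS arrays, whereas no array read any of the 6 genes above 1184. The 3′ to 5′ signal ratio of the Actb control, a measure of RNA integrity, was 1.05 to 1.49 on 5 mM arrays, 1.11 to 1.49 on 100 µM arrays and 0.871 to 1.99 on PBS arrays, with the highest value on PBS replicate 1. The part of RNA integrity or of the bright end of the scale in the differences below was not tested.

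Of the 6 genes, Efnb2 differed most between the peroxide groups. Its signal was 41.6, 47.3, 42.1, 53.9 and 33.9 on the 5 mM arrays, 300.4, 319, 271 and 195 on the 100 µM arrays, and 110, 77.3 and 82.9 on the PBS arrays. Every 5 mM array was below every PBS array, every 100 µM array was above them, and no groups overlapped. The group means were 43.8 ± 7.43 in 5 mM cells, 271 ± 55.0 in 100 µM cells and 90.0 ± 17.3 in PBS cells (SD, n = 5, 4 and 3). On the scale of log2(signal + offset), with an offset of 10.1 units, 5 mM minus PBS was -0.89 ± 0.20 (SE), 100 µM minus PBS was 1.48 ± 0.21 and 5 mM minus 100 µM was -2.37 ± 0.18, a 5.18-fold lower level. Efnb2 also had the lowest mean level of the 6 genes, at percentile 39.0 of the tested probe sets.

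Aqp8, the channel that passes hydrogen peroxide, had the tightest 100 µM values. Its signal was 64.6, 66.5, 81.1, 59.7 and 72.4 on the 5 mM arrays, 273, 321, 289 and 292 on the 100 µM arrays, and 96.8, 128 and 94.5 on the PBS arrays. The 100 µM arrays stood well apart, their lowest at 2.14 times the highest PBS value, and the 5 mM arrays lay just under the PBS arrays without overlap. The mean was 68.9 ± 8.21 in 5 mM cells, 294 ± 20.2 in 100 µM cells and 106 ± 18.5 in PBS cells. The difference of 5 mM minus PBS was -0.55 ± 0.16, the smallest of the 6 genes, and 100 µM minus PBS was 1.39 ± 0.17. Their gap, 5 mM minus 100 µM, was -1.95 ± 0.15, a 3.86-fold lower level.

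Abcb1a, the efflux pump, was read at 53.1, 55.9, 91.9, 80.4 and 81.5 on the 5 mM arrays, at 279, 275, 212 and 343 on the 100 µM arrays, and at 112, 161 and 133 on the PBS arrays. The groups did not overlap, although 5 mM replicates 3 to 5 lay closer to the PBS values than replicates 1 and 2. The mean was 72.6 ± 17.1 in 5 mM cells, 277 ± 53.8 in 100 µM cells and 136 ± 24.4 in PBS cells. The log2 difference was -0.83 ± 0.20 for 5 mM minus PBS, 0.98 ± 0.21 for 100 µM minus PBS and -1.80 ± 0.19 for 5 mM minus 100 µM. Abcb1b is a near copy of this gene with a probe set of its own, and sharing of transcripts between the 2 probe sets cannot be told from the signals.

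Nudt5, the hydrolase of oxidised nucleotides, was read at 73.6, 72.5, 63.4, 66.3 and 72.5 on the 5 mM arrays, at 231, 428, 333 and 418 on the 100 µM arrays, and at 120, 161 and 142 on the PBS arrays. The 5 mM values lay within a narrow band below all controls, while the 100 µM values were spread widely above them. The mean was 69.7 ± 4.54 in 5 mM cells, 352 ± 91.6 in 100 µM cells and 141 ± 20.9 in PBS cells. The log2 difference was -0.91 ± 0.19 for 5 mM minus PBS, 1.23 ± 0.20 for 100 µM minus PBS and -2.15 ± 0.18 for 5 mM minus 100 µM, a 4.43-fold lower level.

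Hmga2, the chromatin protein gene, was the one with overlapping groups. Its signal was 98.1, 99.7, 70.0, 74.2 and 54.5 on the 5 mM arrays, 314, 263, 353 and 368 on the 100 µM arrays, and 91.9, 203 and 138 on the PBS arrays. PBS replicate 1 was below 5 mM replicates 1 and 2, and PBS replicate 2 was the highest control, so the controls were more spread here than for any other of the 6 genes. The mean was 79.3 ± 19.3 in 5 mM cells, 324 ± 46.7 in 100 µM cells and 144 ± 55.7 in PBS cells. The log2 difference was -0.75 ± 0.23 for 5 mM minus PBS and 1.17 ± 0.24 for 100 µM minus PBS. Leaving out PBS replicate 1 gave -1.02 for 5 mM minus PBS, and leaving out PBS replicate 2 gave -0.49. The peroxide groups stood apart by -1.92 ± 0.21, a 3.78-fold lower level in 5 mM cells.

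Cited2, the p300 and CBP cofactor, was the brightest of the 6 genes. Its signal was 265, 237, 319, 460.1 and 333 on the 5 mM arrays, 1184, 876, 790.0 and 1093 on the 100 µM arrays, and 489, 575 and 555 on the PBS arrays. No groups overlapped, but 5 mM replicate 4 came close to the lowest control. The mean was 323 ± 86.2 in 5 mM cells, 986 ± 184 in 100 µM cells and 540 ± 44.9 in PBS cells. The log2 difference was -0.76 ± 0.19 for 5 mM minus PBS, 0.84 ± 0.19 for 100 µM minus PBS, and -1.60 ± 0.17 for 5 mM minus 100 µM, a 3.03-fold lower level.

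**Figure D1:**
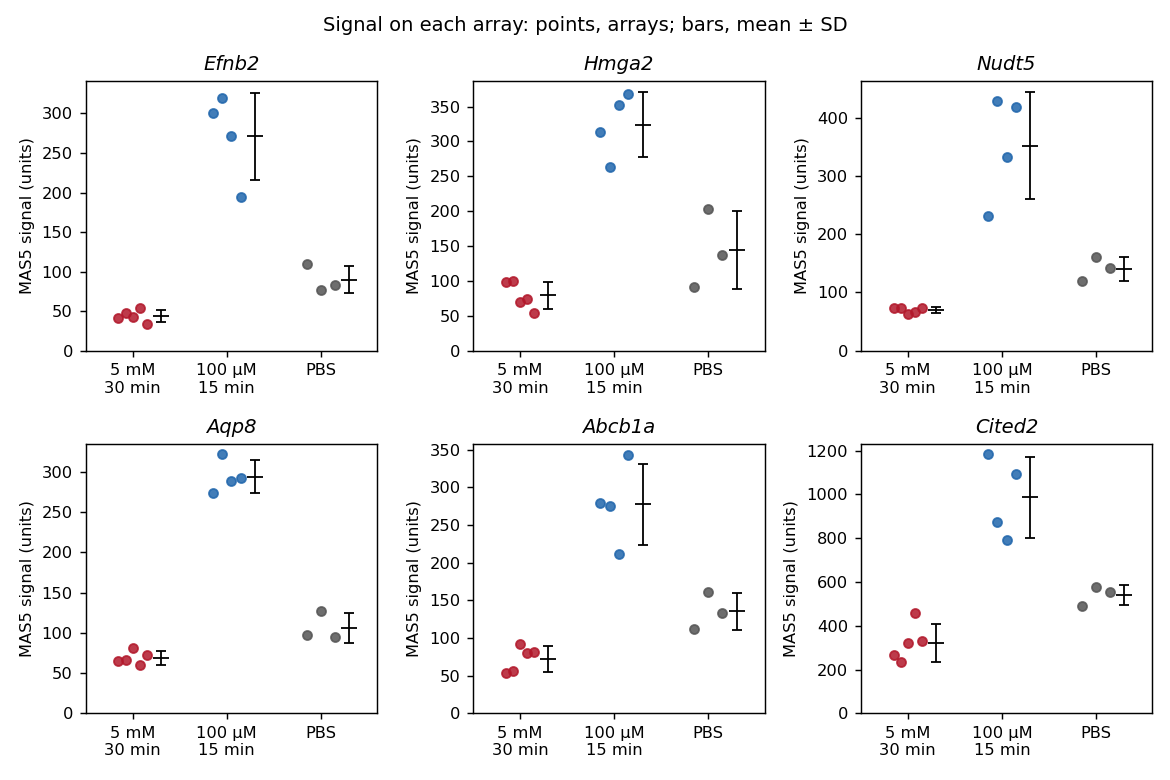
Signal of each of the 6 genes on every array (points, arbitrary units) with the group mean and SD (bars), in cells given 5 mM hydrogen peroxide (n = 5), 100 µM (n = 4) and PBS (n = 3). In each panel the 100 µM arrays sit above both other groups, and Hmga2 is the gene where 5 mM and PBS arrays overlap.

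In size, the difference of 100 µM minus PBS exceeded that of 5 mM minus PBS in 6 of 6 genes, but not in every setting, and the gap was not tested. In Abcb1a and Cited2 it was smaller than the standard errors. Without PBS replicate 1, Hmga2 was at -1.02 for 5 mM minus PBS and 0.90 for 100 µM minus PBS, and Abcb1a at -0.95 and 0.86. Without 5 mM replicate 4, Cited2 was at -0.89 and 0.84. The log2 difference of 100 µM minus PBS ran from 0.84 to 1.48 with a median of 1.20 (1.79 to 2.80-fold), and 5 mM minus PBS ran from -0.91 to -0.55 with a median of -0.79 (1.47 to 1.88-fold lower). Of the log2 distance between the peroxide groups, the stretch below PBS made up 28.5% in Aqp8 and 47.4% in Cited2, the lowest and highest of the 6. The order of the genes is loose, since neighbours in the order of either difference differed by less than the larger of their standard errors.

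Limma's test across all probe sets, adjusted by Benjamini-Hochberg over the 8695, called 6 of 6 genes higher at 100 µM against PBS, where 12.8% of all probe sets were called higher. It called 6 of 6 lower at 5 mM against PBS, where 6.03% of all were called lower, and 6 of 6 lower at 5 mM against 100 µM, where 14.6% of all were. These counts restate the choice of the genes. The arrays of the groups did not overlap for 6 of 6 genes at 100 µM above PBS (18.4% of all probe sets), 5 of 6 at 5 mM below PBS (10.4%) and 6 of 6 at 5 mM below 100 µM (13%). Among all probe sets ordered by the fall at 5 mM against 100 µM, the 6 genes held places 21 (Efnb2), 28 (Nudt5), 45 (Aqp8), 47 (Hmga2), 54 (Abcb1a) and 88 (Cited2). The calls at 5 mM against PBS depended on the 3 controls: without PBS replicate 2, and likewise without PBS replicate 3, 2 of 6 were called, Efnb2 and Nudt5, whereas 6 of 6 were called without PBS replicate 1. The calls at 100 µM remained 6 of 6 in every alternative.

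**Figure D2:**
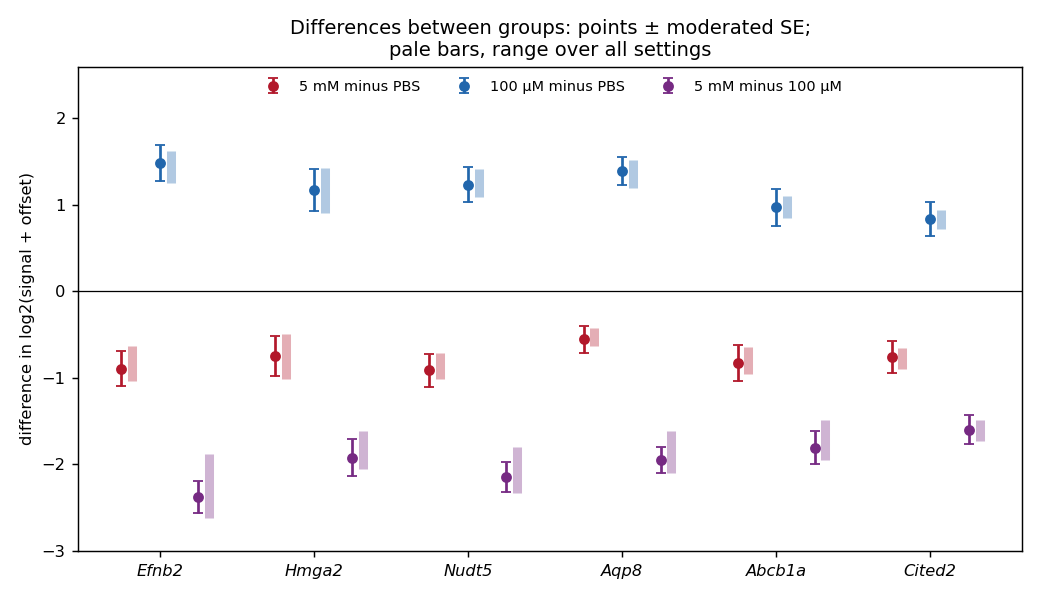
Differences in log2(signal + offset) for the 6 genes, for 5 mM minus PBS, 100 µM minus PBS and 5 mM minus 100 µM, as points with standard errors, and as pale bars their range over the 22 alternative settings. Differences of 5 mM minus PBS lie between -0.91 and -0.55, and those of 100 µM minus PBS between 0.84 and 1.48.

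The 5 mM arrays also read less RNA of primitive endoderm, the extra-embryonic lineage that arises spontaneously in stem cell cultures. Of 17 measured markers of that lineage, 12 fell and 0 rose in 5 mM cells against PBS (median log2 difference -2.27), led by the adaptor gene Dab2 (-4.00), the basement membrane collagen Col4a1 (-3.56) and the endocytic receptor Cubn (-3.50). In 100 µM cells 6 rose and 0 fell against PBS (median 0.29), led by the transcription factors Foxa2 (2.62) and Gata6 (1.76) and the receptor Pdgfra (1.11). Over all 6414 genes measured, 5.36% were called higher and 6.84% lower at 5 mM against PBS, and 11.9% and 12.7% at 100 µM. The summed signal of the 17 markers was 1819 to 2039 on 5 mM arrays, 10814 to 11914 on 100 µM arrays and 7552 to 11824 on PBS arrays, where PBS replicate 1 gave the highest value. No defining marker was at 0 in any group mean; Foxa2 was the dimmest of the named ones, with means of 11.3 in 5 mM cells, 234 in 100 µM cells and 36.4 in PBS cells. The sums of 5 mM and PBS arrays did not overlap, whereas those of 100 µM and PBS arrays did. Dimmer probe sets of several markers differed from these values. For 5 mM minus PBS a second one of Cubn read 0.34, one of Pdgfra 0.52 and one of Gata6 0.01. For 100 µM minus PBS another of Gata6 read -0.003. Dimmer ones of Dab2 read -1.25 and -0.62 for 5 mM minus PBS, and the latter did not pass limma's test (adjusted p = 0.218). At 5 mM the called markers were lower as the 6 genes were, at 100 µM the 6 called markers were higher and 11 of 17 did not pass, and the part of the lineage in the differences of the 6 genes was not tested.

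Markers of other cell types were read in the same way. On the array, 7 fibroblast markers and 5 mesoderm and ectoderm markers were too dim to test and are left out below. Of 9 fibroblast markers, which would show feeder cells, 0 of 9 changed in 5 mM cells against PBS (3 at an unadjusted p under 0.05), and 1 fell in 100 µM cells, the surface glycoprotein gene Thy1 (-1.66). Their summed signal was 845 to 1121 on 5 mM arrays, 884 to 1027 on 100 µM arrays and 786 to 1126 on PBS arrays. Of 9 mesoderm and ectoderm markers, 2 fell in 5 mM cells, the epithelial keratins Krt18 (-1.70) and Krt8 (-1.58), and 1 fell in 100 µM cells, Krt18 (-0.91). Their summed signal was 431 to 720 on 5 mM arrays, 783 to 863 on 100 µM arrays and 789 to 1104 on PBS arrays. Most of the PBS sum came from the 2 keratins. Krt8 averaged 134 in 5 mM cells and 432 in PBS cells, and Krt18 52.6 and 201. No other gene of this list was called against PBS, so the lower sum at 5 mM describes the keratins and not the list. At 100 µM, 1 of 9 lower in this list and in the fibroblast list (11.1%) is near the 12.7% of all genes called lower. Of 19 pluripotency genes, 4 rose and 1 fell in 5 mM cells, with the signalling inhibitor Lefty1 at 1.92 and the growth factor gene Fgf4 at -0.58, and 7 rose and 4 fell in 100 µM cells, with the transcription factor Klf4 at 1.49 and the germline gene Dppa3 at -1.51. Their summed signal was 41949 to 47534 on 5 mM arrays, 44216 to 49826 on 100 µM arrays and 35956 to 39438 on PBS arrays. Both peroxide groups thus lay above the controls on the deposited scale. The brightest genes weigh most in this sum, and the groups differ at the bright end. Over the alternative settings the difference from PBS went down to -0.50 at 5 mM and -0.38 at 100 µM for Dppa5a, the brightest. For Pou5f1 it went down to -0.16 and -0.31, whereas for Nanog it stayed positive at both doses by its brighter probe set. A dimmer one of Nanog read -0.59 at 5 mM and 0.58 at 100 µM, and passed limma's test at neither (adjusted p = 0.159 and 0.136). The part of these lists in the differences of the 6 genes was not tested.

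**Figure D3:**
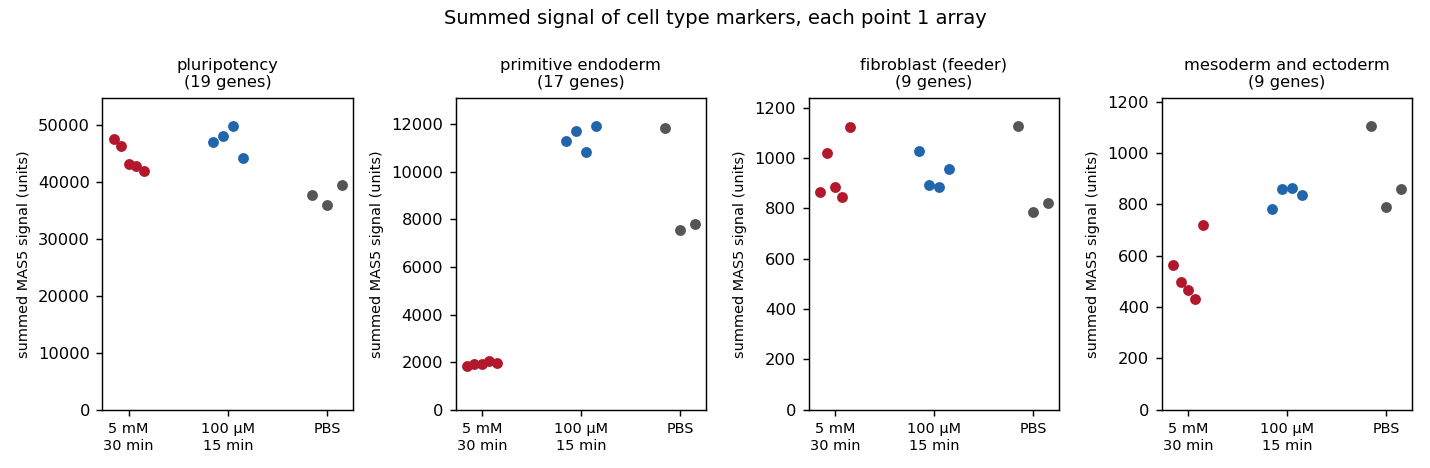
Summed signal of 4 marker lists on every array, in 5 mM, 100 µM and PBS cells, each panel from 0. Primitive endoderm sums lie between 1819 and 2039 in 5 mM cells, far below the 10814 to 11914 in 100 µM cells and the 7552 to 11824 in PBS cells.

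The 6 genes tracked one another across the groups, whereas within the groups some pairs went together and others apart. Over the 12 arrays, Pearson's r between the log2 values of 2 of the genes ran from 0.863 to 0.970 with a median of 0.929 (15 pairs), a value set by the group differences through which the genes were chosen. Deviations from the group means correlated from -0.44 (Efnb2 with Nudt5) to 0.71 (Abcb1a with Cited2), with a median of -0.08, and 6 of 15 pairs were above 0. All these points share arrays and scaling.

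The genes most like each of the 6 were taken as the 3 with the highest Pearson r over the 12 arrays among 6413 other genes, as a description with no test. Efnb2 was nearest to Prkar1a, a regulatory subunit of protein kinase A (0.981), Lrpap1, a chaperone of lipoprotein receptors (0.970), and Furin, a secretory pathway protease (0.968). Aqp8 was nearest to Hdlbp (0.982), Slc25a20 (0.976) and Itm2b (0.971), an RNA-binding protein, the mitochondrial acylcarnitine carrier and a membrane protein. Slc25a20 was also nearest to Nudt5 (0.977), followed by the ubiquitin ligase Arih2 (0.977) and by Aqp8 itself (0.966). Hmga2 was nearest to S100a13 (0.975), Pcf11 (0.970) and Dazl (0.969), which encode a calcium-binding protein, a transcription termination factor and a germ cell RNA-binding protein. Abcb1a and Cited2 were each among the nearest genes of the other (0.970), and Abcb1a was otherwise nearest to the vesicle protein gene Vamp2 (0.972) and to Dock5 (0.969). Cited2 was nearest to Sgk1, a kinase induced by serum, glucocorticoids and stress (0.978), and to the autophagy receptor gene Calcoco2 (0.971). Of these 17 different genes, 3 belong to the 6. Among the others, 8 were themselves called higher at 100 µM and lower at 5 mM, against 0.667% of all probe sets. They were picked by likeness to genes chosen for this pattern, so the count restates that choice.

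**Figure D4:**
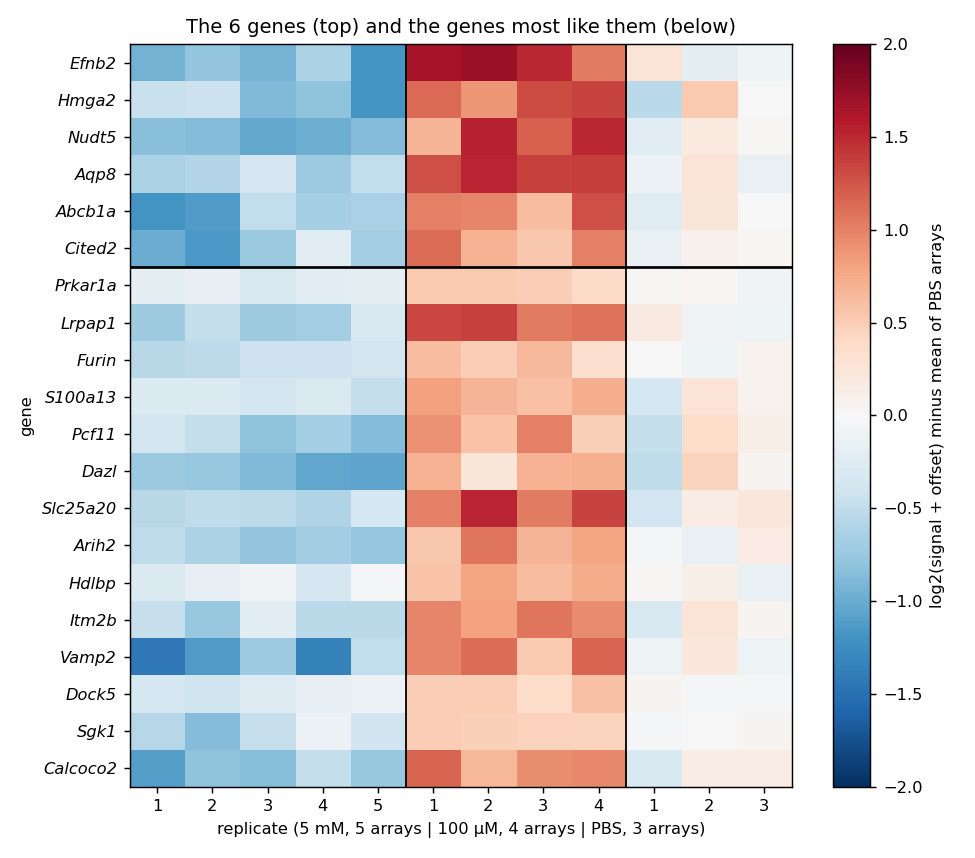
Colour shows log2(signal + offset) minus the mean of the PBS arrays, red above and blue below, for the 6 genes (upper rows) and the genes nearest to them by Pearson r (lower rows), in columns for the 5 mM, 100 µM and PBS arrays. All rows are red on the 100 µM arrays, and the 5 mM arrays are blue to near white.

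Few probe sets met both calls. In all, 58 of 8695 probe sets (0.667%) were called higher at 100 µM and lower at 5 mM against PBS, and 55 of them name 53 genes, the 6 among these. The other 47 genes include 5 primitive endoderm markers, and 0 relatives from the lists of gene families. Of the 58, 8 probe sets fell further at 5 mM against 100 µM than Efnb2 did, and 22 lay within the range of the 6 genes, with those of the 6 counted among them. The 10 largest falls among the other genes were those of Dab2 (-4.90), Gata6 (-4.31), the forkhead factor gene Foxq1 (-4.27), Col4a1 (-4.09), Pdgfra (-4.04), the angiomotin gene Amot (-3.44), the growth factor gene Igf1 (-2.85), the glutathione peroxidase gene Gpx3 (-2.29), the serine protease gene Htra1 (-2.28) and the laminin chain gene Lamb3 (-2.21). In 5 mM cells Foxq1, Igf1 and Lamb3 averaged 8.68, 4.81 and 9.87 signal units, below the offset, so their falls are understated. Gpx3, whose product reduces peroxides, averaged 145 ± 16.2 in 5 mM cells, 772 ± 238 in 100 µM cells and 437 ± 101 in PBS cells. Dimmer probe sets of Dab2 fell by less at 5 mM against 100 µM (-2.32 and -1.62), as did those of Gata6 (-0.98 and -0.62) and Pdgfra (-0.32). Of these, -0.62 and -0.32 did not pass limma's test (adjusted p = 0.0742 and 0.28). The 100 µM call of Col4a1 failed in 10 of 22 settings. Both calls share the PBS arrays, and 23 probe sets met them without PBS replicate 2 and 25 without PBS replicate 3.

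Ephrins and Eph receptors, the family of Efnb2, held several genes that rose at 100 µM and none that passed the test at 5 mM. Of 10 measured relatives, 0 of 10 changed in 5 mM cells against PBS in limma's test (2 at an unadjusted p under 0.05, median log2 difference 0.02). Over all 6414 genes measured, 5.36% were called higher and 6.84% lower in that comparison (median -0.01). In 100 µM cells 5 rose and 0 fell against PBS (median 0.65), where 11.9% of all genes were called higher and 12.7% lower (median 0.04). Against 100 µM, 0 rose and 4 fell in 5 mM cells (median -0.47), where 13.8% of all genes were called higher and 15.2% lower (median -0.04). These percentages are the background for the other gene lists too. The receptor gene Epha4 averaged 68.9 ± 13.8 in 5 mM cells, 183 ± 29.4 in 100 µM cells and 72.4 ± 25.5 in PBS cells, and it rose by 1.27 at 100 µM (adjusted p = 0.0015). Ephb3, a receptor of ephrin-B ligands, averaged 110 ± 14.8 in 5 mM cells, 231 ± 10.1 in 100 µM cells and 127 ± 15.7 in PBS cells (100 µM minus PBS 0.82, adjusted p = 0.0019). The receptor gene Epha2 averaged 334 ± 25.4 in 5 mM cells, 571 ± 83.7 in 100 µM cells and 334 ± 26.9 in PBS cells (0.75, adjusted p = 0.0013). The ligand genes Efnb1 (1.12, adjusted p = 0.0104) and Efna3 (0.56, adjusted p = 0.0387) also rose; without PBS replicate 2 the adjusted p of Efnb1 was 0.0552. The ligand gene Efnb3 was at 0.81 (adjusted p = 0.0729) by its brighter probe set and at 0.77 (adjusted p = 0.018) by its other one.

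ABC transporters, the family of Abcb1a, were called at shares near those of all genes. Against PBS 9.52% were called at 5 mM (12.2% of all genes) and 23.8% at 100 µM (24.6%). At 5 mM against 100 µM 33.3% were called (29%). Of 21 relatives, 0 rose and 2 fell in 5 mM cells against PBS (median -0.07), 3 rose and 2 fell in 100 µM cells (median 0.14), and 2 rose and 5 fell in 5 mM cells against 100 µM. Abcb1b, the near copy of Abcb1a, averaged 29.6 ± 6.68 in 5 mM cells, 114 ± 24.1 in 100 µM cells and 95.9 ± 4.91 in PBS cells. It fell by 1.43 at 5 mM (adjusted p = 0.0004), while its 100 µM difference was 0.20 (adjusted p = 0.545). Abcb4, the phosphatidylcholine exporter gene beside them, was at -0.20 for 5 mM minus PBS and 0.14 for 100 µM minus PBS and passed neither test. The peptide transporter gene Tap1 fell at 5 mM (-1.20, adjusted p = 0.0117), though its dimmer second probe set read 0.02. At 100 µM the chloride channel gene Cftr rose (0.89, adjusted p = 0.02), and Abcf1 (-0.99, adjusted p = 0.0005), a translation factor without a membrane part, and Abcd4 (-1.04, adjusted p = 0.0163) fell. The other 2 that rose at 100 µM were Abca1 and Abcc5.

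Of the other aquaporins, the family of Aqp8, 2 passed the filter, Aqp1 and Mip, and neither passed the test in any of the 3 comparisons. Aqp1, a water channel of red cells and kidney, averaged 96.3 ± 76.5 in 5 mM cells, 58.8 ± 13.5 in 100 µM cells and 36.8 ± 34.3 in PBS cells. A further 4 aquaporins on the array were too dim to test, among them Aqp9 with a mean signal of 11.4.

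Nudix hydrolases and other enzymes of the nucleotide pool and of ADP-ribose, the setting of Nudt5, had no shared direction. Of 19 relatives, 0 rose and 2 fell in 5 mM cells against PBS (median -0.08), 2 rose and 5 fell in 100 µM cells (median -0.08), and 4 rose and 3 fell in 5 mM cells against 100 µM. Nudt1, which clears oxidised purine nucleotides, averaged 619 ± 112 in 5 mM cells, 383 ± 13.8 in 100 µM cells and 584 ± 113 in PBS cells. It fell by 0.58 at 100 µM (adjusted p = 0.0201), the comparison in which Nudt5 was higher. Nudt9, an ADP-ribose hydrolase, also fell at 100 µM (-0.74, adjusted p = 0.0119), as did the deoxynucleotide hydrolase gene Samhd1 (-0.59, adjusted p = 0.0282). Ogg1, the glycosylase that removes oxidised guanine from DNA, rose at 100 µM (0.60, adjusted p = 0.0222). At 5 mM Nudt3, a diphosphoinositol polyphosphate hydrolase, fell against PBS (-0.61, adjusted p = 0.0264), and the deoxyuridine nucleotidase gene Dut fell against 100 µM (-1.12, adjusted p = 0.0103). Dut was dim, at 29.0 ± 16.8 in 5 mM cells and 70.2 ± 17.3 in 100 µM cells. For both genes the arrays of the groups compared overlapped.

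Among 6 genes listed with Hmga2, namely 4 HMG genes (Hmgb2, Hmgb3, Hmgn1 and Hmgn5), the RNA-binding protein gene Igf2bp1 and the growth factor gene Igf2, 3 rose and 0 fell in 5 mM cells against PBS (median 0.58), and 2 rose and 0 fell in 100 µM cells (median 0.37). At 5 mM the nucleosome-binding protein gene Hmgn1 rose (0.85, adjusted p = 0.0038), but quantile normalisation turned its difference to -0.56. Its mean signal of 13313 in 5 mM cells, against 7317 in PBS cells, lies at the bright end of the scale, where the groups differ. Hmgb3, a DNA-bending protein gene, averaged 529 ± 20.2 in 5 mM cells, 652 ± 105 in 100 µM cells and 362 ± 132 in PBS cells, and rose at 5 mM (0.59, adjusted p = 0.0362) and at 100 µM (0.87, adjusted p = 0.0029). The RNA-binding protein gene Igf2bp1 did so too (0.57 at 5 mM, adjusted p = 0.0321, and 0.75 at 100 µM, adjusted p = 0.005). Hmgb2, a relative of Hmgb3, fell at 5 mM against 100 µM (-0.80, adjusted p = 0.0061).

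Of 16 genes around Cited2, made up of CITED, p300 and CBP, HIF pathway and AP-2 genes, 2 rose and 3 fell in 5 mM cells against PBS (median 0.06), 1 rose and 2 fell in 100 µM cells (median -0.05), and 3 rose and 4 fell in 5 mM cells against 100 µM. Cited1, the closest relative of Cited2 on the array, averaged 63.2 ± 5.52 in 5 mM cells, 116 ± 12.4 in 100 µM cells and 113 ± 19.0 in PBS cells. It fell by 0.74 at 5 mM (adjusted p = 0.0113), and its 100 µM difference was 0.03 (adjusted p = 0.914). Crebbp, which encodes the partner CBP, fell at 5 mM too (-0.76, adjusted p = 0.0067). Hif1a, the competitor for CBP, rose at 5 mM (0.52, adjusted p = 0.0411) and by its second probe set (0.45, adjusted p = 0.0198). At 100 µM Vhl, the ubiquitin ligase subunit that targets HIF proteins, rose (0.82, adjusted p = 0.0324) and the HIF target Vegfa fell (-0.71, adjusted p = 0.0341). The AP-2 factor gene Tfap2a fell at 5 mM against 100 µM (-0.70, adjusted p = 0.0437).

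**Figure D5:**
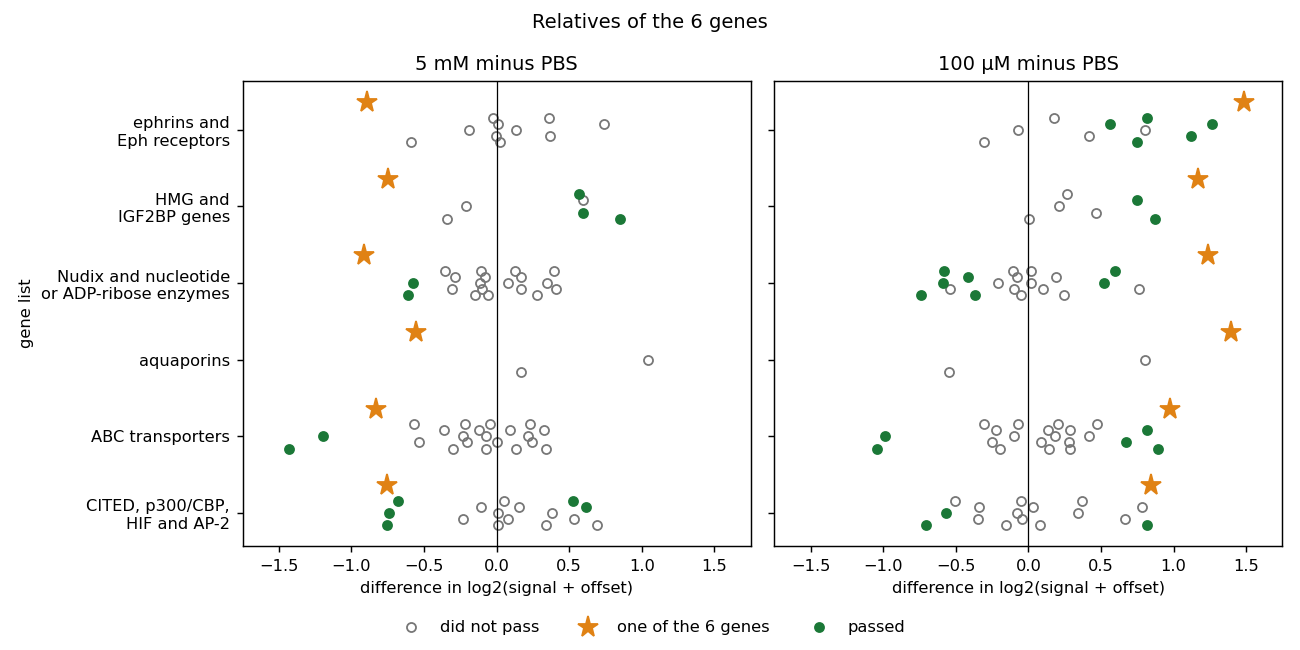
Differences in log2(signal + offset) of the relatives of the 6 genes, for 5 mM minus PBS and 100 µM minus PBS, by gene list, with filled points for relatives that passed limma's test and stars for the 6 genes. In every list the star lies below 0 at 5 mM and above 0 at 100 µM. Of the relatives, 0 of 74 was called on both sides in that way, as were 0.667% of all probe sets.

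Over all lists together, 74 relatives were measured and 0 of 74 was called both higher at 100 µM and lower at 5 mM, against 0.667% of all probe sets. At so small a share, 0 of 74 does not set the relatives apart from other genes. Of the 74, 5 rose and 7 fell in 5 mM cells against PBS, 13 rose and 9 fell in 100 µM cells, and 10 rose and 17 fell in 5 mM cells against 100 µM. Of the 13 that rose at 100 µM, 5 were ephrins and Eph receptors (Epha4, Ephb3, Epha2, Efnb1 and Efna3), and the 7 that fell at 5 mM include Abcb1b and Cited1, the relatives of Abcb1a and Cited2. Calls among relatives depended on the controls: without PBS replicate 2, 1 rose and 2 fell at 5 mM, and 8 rose and 2 fell at 100 µM, and without PBS replicate 3, 2 rose and 4 fell at 5 mM and 4 fell at 100 µM. Whether the response of a gene and its relative differed was not tested.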

How the data were processed

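The values are probe set signal intensities that the authors deposited as 1 table, made with MAS5 per the submitters' processing notes. For its version, scaling target and detection settings no value was given in the sources used here. Trimmed means of the 12 arrays lay within 0.0195%, so the arrays had been scaled to a common level. From these intensities log2(signal + offset) was computed, with the offset at the 20th percentile of all values (10.1). Probe sets with a mean above the 30th percentile were kept, 66 control probe sets were left out, and limma (version 3.58.1 in R 4.3.3) with a variance trend was fitted to all groups, with Benjamini-Hochberg adjustment over 8695 probe sets and a threshold of 0.05. The fit was tested on simulated data. A fold change on this scale understates the change of dim genes. Of the probe sets, 10855 had 1 gene symbol, 396 had several and 1193 outside the controls had none, and only the first kind was named. A gene with several probe sets is represented by the one with the highest mean.

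The 6 genes, the gene lists and the tests were chosen with earlier results of these data known. Named relatives are the closest family members and, from each list, up to 5 genes past the threshold with the largest differences from PBS; named markers are up to 3 a list and comparison plus Pou5f1, Sox2, Nanog and Zfp42. Replicate numbers of different groups did not pair the arrays. The number of arrays, 3 in the PBS group, limits the precision. Alternatives covered offset, floor, filter, scaling, variance model, array weights, groups fitted, a replicate block and leaving out each array.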

Additional observations from a re-analysis of the deposited data

How the results depend on the processing

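None of the differences of the 6 genes changed sign under the alternatives, and all 6 were called higher at 100 µM in each of the 22. The calls at 5 mM against PBS held for all 6 genes in 8 of 22 settings and otherwise for 2 to 5, with leave-one-out counts of 2 to 6. The call was lost in 12 of 22 settings for Hmga2, 8 for Aqp8, 2 each for Abcb1a and Cited2, 1 for Efnb2 and 0 for Nudt5. A 4-fold offset moved the 5 mM minus PBS value of Efnb2 to -0.63, the 100 µM minus PBS value of Aqp8 to 1.19, and the 5 mM minus 100 µM values of Efnb2, Nudt5, Aqp8 and Abcb1a to -1.88, -1.80, -1.61 and -1.49, since a larger offset compresses differences of dim genes. A floor at the offset in place of adding it gave -2.62 for Efnb2. Replicate numbers did not pair the arrays: deviations of same-numbered arrays correlated at -0.178 to 0.148 (10 pairs, 2 of them over 0.1). With the replicate block, 3 of the 6 genes were called lower at 5 mM, 30 probe sets met both calls against 58, 294 and 303 probe sets were called higher and lower at 5 mM against 494 and 524, and 3 and 4 relatives were called higher and lower there against 5 and 7. Array weights gave 787 and 868 probe sets and 10 relatives higher at 5 mM. Relatives called higher at 5 mM numbered 3 with no filter and 1 with no variance trend. Relatives called lower at 100 µM numbered 5, against 9, when only the 2 groups compared were fitted, and relatives called higher at 5 mM against 100 µM numbered 16, against 10, on a common median. The cause of these shifts was not tested. Leaving out each array in turn gave 264 to 493 probe sets higher and 229 to 529 lower at 5 mM against PBS, 648 to 977 lower at 100 µM, 23 to 53 with both calls, and relatives at 1 to 6 higher and 2 to 7 lower at 5 mM and 8 to 13 higher and 2 to 9 lower at 100 µM; the lowest of each came without PBS replicate 2. A common median moved the split of calls at 5 mM against 100 µM to 1470 higher and 933 lower, from 1113 and 1272, and at 100 µM against PBS to 868 and 1154, from 1110 and 977. Calls of single relatives that failed in 8 or more of 22 settings were those of Tfap2c (13), Hif1a (11) and Hmgb3 (11) at 5 mM, Nudt21 (16), Parg (16), Ndrg1 (13), Efna3 (10), Vhl (9) and Vegfa (8) at 100 µM, and Tfap2a (12), Efnb1 (10), Cftr (10), Bnip3 (10), Abcf2 (9) and Samhd1 (8) at 5 mM against 100 µM.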
